A study of Mus musculus with 6 samples.

Results

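Solute carriers are membrane proteins that move ions, nutrients and metabolites across the plasma membrane and the membranes of organelles. The genes described here are the protein-coding genes of the expression tables whose symbol starts with Slc and a number. Left out by rule were *Slc2a1*, *Slc7a11*, *Slc11a2*, *Slc16a1*, *Slc16a3*, *Slc20a1*, *Slc20a2* and *Slc40a1*, 8 names of which 5 are in the tables. This gave 158 genes of 11234. The rule reads names only, but a gene could be chosen only if it is in the tables, where every gene has a group mean of at least 0.5 FPKM in at least 1 group. The annotation holds 363 genes that meet the rule, and the other 205 are not analysed here. By substrate the analysed genes formed 37 Slc25 mitochondrial carriers, 18 amino acid carriers, 22 metal carriers, 18 anion carriers and 9 sugar carriers. The others were 4 nucleoside carriers, 19 nucleotide sugar carriers and 27 carriers of other substrates. The nucleotide sugar group is the whole Slc35 family, and some of its members carry other substrates, such as *Slc35b1* and *Slc35b2*. A further 4 genes (*Slc9a3r1*, *Slc9a3r2*, *Slc7a6os* and *Slc4a1ap*) bear the name of a carrier without being one, which leaves 154 carriers, and they are given apart.

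The cells were MC3T3-E1, a preosteoblast line of C57BL/6 mouse origin, used at passage 4 in every library. After a serum-free period to synchronize them, cells received complete medium for 24 h either without C3G (control, 3 libraries) or with 100 μmol/L cyanidin-3-O-glucoside (C3G, 3 libraries), an anthocyanin pigment of berries and other plants. The labels do not say whether the 3 libraries of a group came from separate cultures, so p-values measure the spread between these libraries. Expression was measured by RNA-seq and is given as FPKM, that is, fragments counted per gene and divided by gene length and by library size, which allows levels to be compared between genes. The reads behind each value are unknown.

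By background knowledge, amino acid carriers of the plasma membrane set how much glycine, glutamine and leucine a matrix-producing cell can take up, and many of their genes are targets of ATF4, the transcription factor of the integrated stress response. Slc25 proteins lie mostly in the inner mitochondrial membrane and exchange ADP for ATP or import phosphate, amino acids and cofactors. Sulfate and nucleotide sugar carriers supply the building blocks of proteoglycans, and zinc carriers of the Slc30 and Slc39 families serve bone and cartilage enzymes.

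The libraries were not equally alike. Control replicate 1 correlated with the other libraries at r = 0.886 to 0.939 over all genes, while the other 5 libraries correlated with each other at 0.968 to 0.992 (log2(FPKM + 1), descriptions without a test). Over the solute carrier genes the ranges were 0.895 to 0.945 and 0.966 to 0.995. Of the defining osteoblast markers, 6 of 7 were listed, with a summed level of 2414 to 7532 FPKM in control and 2450 to 3379 FPKM in C3G libraries, and *Ibsp* had no value. Adipocyte markers (0 of 4) and endothelial markers (0 of 3) were not listed. *Des* was the listed muscle marker (1 of 3) at 0.715 to 1.63 FPKM in control and 0.780 to 0.981 FPKM in C3G libraries, *Cdh1* the epithelial one (1 of 3) at 0.524 to 0.929 and 0.894 to 1.37 FPKM, and *Cd68* the macrophage one (1 of 4) at 0.144 to 1.08 and 0.720 to 1.25 FPKM. Chondrocyte markers (3 of 4, without *Acan*) summed to 92.8 to 213 FPKM in control and 88.5 to 114 FPKM in C3G libraries. The part of these differences in the results was not tested.

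The glycine transporter gene *Slc6a9* and the cationic amino acid exchanger gene *Slc7a7* were the 2 of 158 solute carrier genes (1.27%) called as different between C3G-treated and untreated cells, both of them higher after C3G. A call needed a two-sided limma p below 0.05, without adjustment, together with a fold change of at least 1.2. Over all genes 73 of 11234 (0.650%) were called, 45 higher (0.401%) and 28 lower (0.249%). With Benjamini-Hochberg adjustment over all genes limma called 0 solute carrier genes, the smallest adjusted p being 0.992, and 0 of all genes. With the replicate number as a block, the same 2 solute carrier genes were called, both higher, beside 100 of all genes as higher (0.890%) and 69 as lower (0.614%). With a correction for GC content 3 of 158 were called, beside 67 of all genes as higher (0.596%) and 68 as lower (0.605%), namely *Slc25a45* and *Slc45a4* as higher and *Slc25a51* as lower, named after their values were seen. Both *Slc6a9* and *Slc7a7* lost their calls under that correction, with differences of 0.48 (limma, unadjusted p = 0.0614) and 0.26 (unadjusted p = 0.0522). With the replicate block added to that correction *Slc6a9* was called again (limma, unadjusted p = 0.0304), beside the same *Slc25a45*, *Slc45a4* and *Slc25a51*, while *Slc7a7* stayed under the fold threshold (unadjusted p = 0.0405). At an unadjusted p under 0.05 limma called 2 solute carrier genes, and 74 of all genes (0.659%).

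The 250 bases upstream of a start of *Slc6a9* and of *Slc7a7*, and of the thiamine transporter gene *Slc19a2* described last, are shown because the results turn on these genes: the first pair was called with all libraries and *Slc19a2*, whose groups overlap over all 6 libraries, with replicates 2 and 3 only. They are RefSeq promoters of build GRCm38.p6, written 5′ to 3′ on the strand of the gene, and capitals mark the letters that matched 1 of 3 motifs on either strand. The motifs were TGATGNAA (the core of an ATF4 element), TGACNNNGC (an antioxidant response element) and GCGTG (the core bound by the aryl hydrocarbon receptor), and none of the 3 overlapped another in these windows. The upstream sequence of *Slc6a9* at chr4:117835008-117835257 on the plus strand, the first of its 3 annotated starts, held 1 GCGTG core on the opposite strand. The other 2 starts of *Slc6a9* each held 1 TGACNNNGC match, with 2 and 1 GCGTG cores. That of *Slc7a7* at chr14:54417703-54417952 on the minus strand held 1 TGATGNAA match, and 1 other of its 5 starts did as well. That of *Slc19a2* at chr1:164248796-164249045 on the plus strand held 5 GCGTG cores. Of the listed stress response targets, *Slc1a4*, *Slc38a2*, *Slc3a2*, *Slc7a1* and *Slc6a9* had starts among these promoters, and none held a TGATGNAA match. *Slc7a7* is not on that list.
Slc6a9: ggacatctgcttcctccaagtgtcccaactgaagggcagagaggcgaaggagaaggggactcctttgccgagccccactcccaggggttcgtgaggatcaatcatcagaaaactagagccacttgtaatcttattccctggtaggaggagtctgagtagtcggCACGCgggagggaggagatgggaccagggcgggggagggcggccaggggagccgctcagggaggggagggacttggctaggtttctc
Slc7a7: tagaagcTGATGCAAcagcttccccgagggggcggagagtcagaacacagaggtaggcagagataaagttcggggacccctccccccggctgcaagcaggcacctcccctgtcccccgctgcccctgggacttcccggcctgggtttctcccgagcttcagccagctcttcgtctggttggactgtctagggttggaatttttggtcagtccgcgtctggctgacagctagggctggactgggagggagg
Slc19a2: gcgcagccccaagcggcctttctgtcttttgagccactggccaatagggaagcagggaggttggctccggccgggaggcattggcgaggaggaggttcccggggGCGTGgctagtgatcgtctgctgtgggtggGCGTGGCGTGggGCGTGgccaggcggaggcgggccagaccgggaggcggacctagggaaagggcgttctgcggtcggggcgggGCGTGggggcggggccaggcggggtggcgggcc
Among all 32851 promoters of this length, 3.45% held TGATGNAA, 10.2% TGACNNNGC and 28.2% GCGTG. Among the 166 promoters of the 123 solute carrier genes that matched the table, the shares were 2.41%, 16.3% and 48.2%. The median GC content was 52.4% over all promoters and 61.2% over those of solute carrier genes, and GCGTG holds more G and C than A and T. A match describes letters and not a bound site.

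*Slc6a9* (ENSMUSG00000028542.17, GRCm38 chr4:117834506-117875198, plus strand) encodes the glycine transporter GlyT1. Its FPKM was 1.53, 2.02 and 2.19 in the control libraries and 2.99, 3.01 and 2.53 in the C3G libraries. The groups did not overlap, and control replicate 1 was the lowest of all 6 libraries. The means were 1.91 ± 0.346 and 2.85 ± 0.271 FPKM (SD, n = 3 each), a ratio of 1.49. On the log2(FPKM + 1) scale the difference was 0.41 (SE 0.158), with an unadjusted p of 0.0375 and an adjusted p of 0.992 by limma. The exact permutation test gave 0.1, the smallest p that 3 against 3 allows. *Slc6a9* is in the list of changed genes of the study, which was made from these libraries, so its call is not independent evidence. Its exons overlap *B4galt2*, *Ccdc24* and *Gm17114* on the opposite strand, and how the authors counted strand is not stated. It met the thresholds in 10 of 17 other settings, and lost the call without any 1 of the C3G libraries (limma, unadjusted p = 0.0575 to 0.114), without control replicate 2 (0.0736), with GC correction alone (0.0614, and 0.0304 with the replicate block as well, where the call stood), with quantile normalization (0.0700) and with replicates 2 and 3 only (0.0518).

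*Slc7a7* (ENSMUSG00000000958.10, GRCm38 chr14:54369442-54417780, minus strand) encodes y+LAT1, a light chain that pairs with Slc3a2 and exchanges cationic for neutral amino acids. Its FPKM was 0.313, 0.405 and 0.408 in the control libraries and 0.684, 0.659 and 0.656 in the C3G libraries. Every C3G library was above every control library, and the gene had the lowest control mean of the 158. Its control mean lies under the level of 0.5 FPKM that every gene of the tables reaches in at least 1 group, so it is in the tables only through the C3G group, and its call and the separation of its groups are favoured by that filter. Means were 0.375 ± 0.0539 and 0.666 ± 0.0154 FPKM (SD, n = 3 each), a ratio of 1.78. The difference on the log2(FPKM + 1) scale, which understates the change of so low a gene, was 0.28 (SE 0.105). limma gave an unadjusted p of 0.0336 and an adjusted p of 0.992, and the exact permutation p was again 0.1. Without control replicate 1 its unadjusted p was 0.0463, with a difference below the fold threshold. It met the thresholds in 4 of 16 other settings, and its exons overlap *Oxa1l* on the opposite strand.

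**Figure D1:**
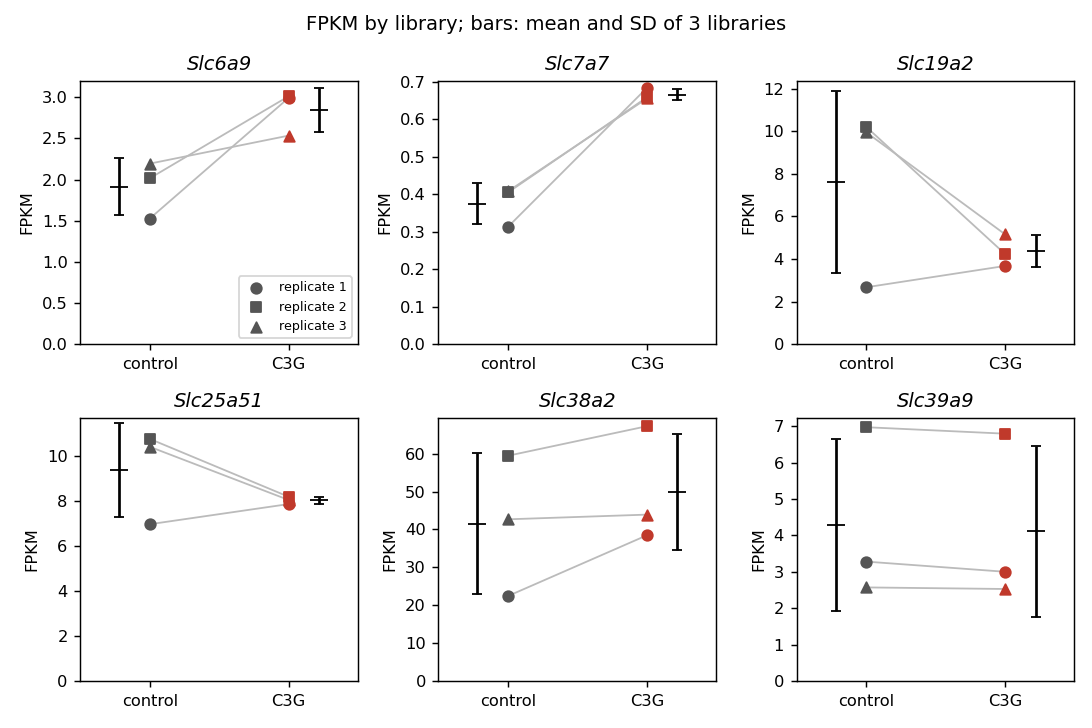
FPKM of 6 solute carrier genes in each library (vertical axes from 0), with lines joining libraries of the same replicate number and bars giving the mean and SD of 3 libraries. The groups are apart for Slc6a9 and Slc7a7, and Slc38a2 and Slc39a9 follow the replicate number. In Slc19a2 and Slc25a51 replicates 2 and 3 are lower after C3G, while control replicate 1 is the lowest library of all.

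A further 7 genes had no overlap between the groups without being called. In all 9 of 158 (5.70%) did not overlap, 8 higher (5.06%) and 1 lower (0.633%) after C3G, beside 452 of all genes (4.02%), of which 286 were higher (2.55%) and 166 lower (1.48%). These 7 were named after their values were seen, apart from *Slc29a3*, which the naming rule also takes. The Slc25 genes among them were *Slc25a45*, at 4.30, 4.08 and 4.10 FPKM in control and 6.34, 5.01 and 5.10 in C3G libraries, and *Slc25a29*, a carrier of basic amino acids, at 0.591, 0.599 and 0.570 against 1.29, 0.825 and 0.722. C3G replicate 1 was the highest library for both. *Slc45a4* had 3.37, 2.01 and 3.43 FPKM against 4.58, 4.05 and 3.86, and *Slc2a10*, a facilitative sugar transporter, 3.34, 4.13 and 3.96 against 5.11, 4.42 and 4.131. *Slc26a11*, a sulfate and chloride transporter, had 2.799, 2.53 and 2.63 FPKM against 3.37, 2.803 and 3.04. The groups of *Slc2a10* and *Slc26a11* were thus only just apart. *Slc22a4*, a carrier of ergothioneine and organic cations, was the gene that lay lower in every C3G library, at 2.04, 1.74 and 1.46 against 1.33, 1.32 and 1.24 FPKM. Each of the 7 had an exact permutation p of 0.1.

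By sign alone, 113 solute carrier genes were higher and 45 lower after C3G (71.5% higher), and over all genes 6960 were higher and 4274 lower (62.0%). The median log2 difference was 0.11 for solute carrier genes and 0.06 for all genes. With replicates 2 and 3 only, 72 were higher and 86 lower (45.6% higher, 45.0% of all genes), and both medians were -0.01. After correction for GC content the medians were 0.068 for solute carrier genes and -0.0013 for all genes. By group the corrected medians were -0.0025 for Slc25, 0.078 for amino acid, 0.12 for metal, 0.036 for anion, 0.11 for nucleotide sugar, 0.14 for sugar and 0.12 for nucleoside carriers, 0.045 for carriers of other substrates and -0.14 for genes named after a carrier. Among the 154 carriers proper, 113 were higher and 41 lower.

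**Figure D2:**
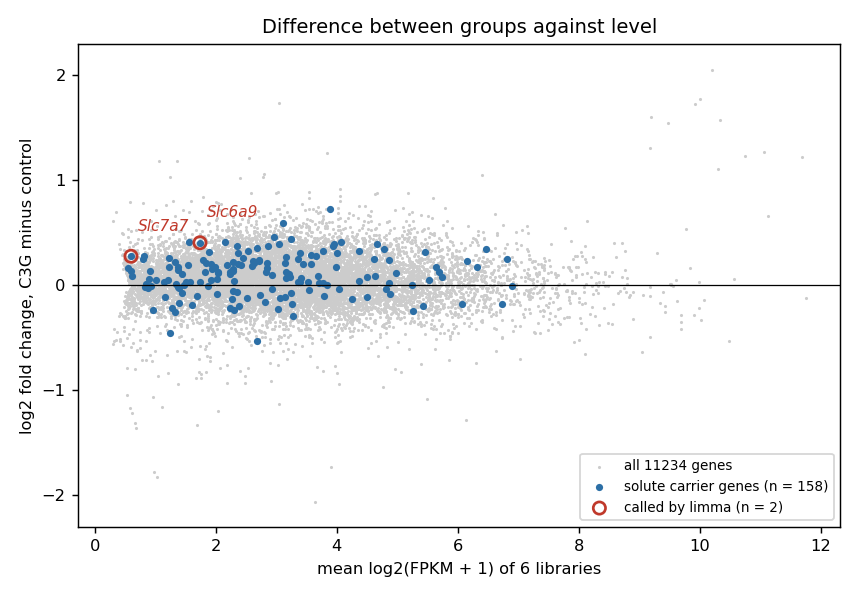
Log2 fold change of C3G against control (vertical axis, log2(FPKM + 1) scale) against mean log2(FPKM + 1) of 6 libraries (horizontal axis) for all 11234 genes (grey) and the 158 solute carrier genes (blue), the 2 genes called by limma being circled. The solute carrier genes lie within the cloud of all genes, and Slc6a9 and Slc7a7 lie toward its low end of expression.

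The solute carrier genes took 0.753% to 0.852% of the summed FPKM of a library, the lowest share being that of control replicate 1. The 10 highest genes took 37.0% to 42.4% of that sum. The median control level was 5.41 FPKM, beside 7.09 FPKM for all genes, and ran from 0.375 FPKM for *Slc7a7* to 119 FPKM for *Slc25a4*. Of the 158 genes, 48 had a control mean of at least 10 FPKM and 13 a mean under 1 FPKM. Median control levels by group ran from 3.15 FPKM for anion carriers to 9.24 FPKM for amino acid carriers.

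**Figure D3:**
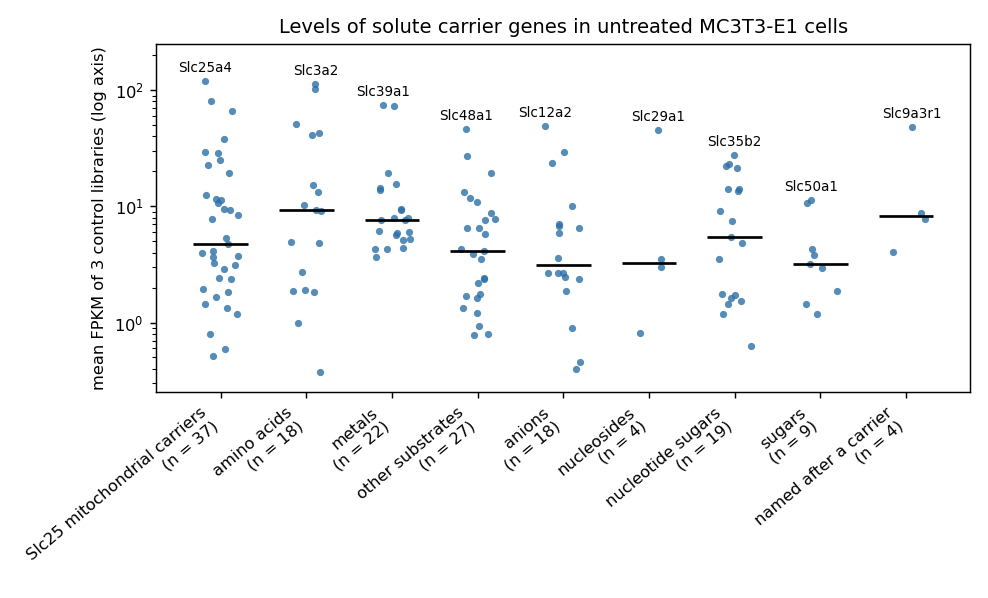
Mean FPKM of the 3 control libraries (log axis) for each solute carrier gene by substrate group, with a black line at the median of each group and the highest gene of each named. Slc25a4 at 119 FPKM and Slc3a2 at 114 FPKM are the highest genes, and 13 genes lie under 1 FPKM.

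Amino acid carriers held both called genes, 2 of 18 (11.1%, beside 0.650% of all genes), and their median log2 difference was 0.08. Of these, *Slc7a7* entered the tables only through its higher group, so this share is not support for a difference of the group. By sign 14 were higher and 4 lower with all libraries, and 9 and 9 with replicates 2 and 3 only (median 0.017). Together they summed to 446, 428 and 411 FPKM in the control and 471, 446 and 419 FPKM in the C3G libraries, so the summed level of the groups overlapped. Within each replicate number the sum was higher after C3G, as it was for metal, anion and nucleoside carriers but not for the other groups. This was not tested. *Slc3a2* encodes the CD98 heavy chain, which carries the Slc7 light chains to the cell surface. Its FPKM was 148, 92.1 and 103 in control and 124, 87.1 and 88.8 in C3G libraries. Replicate 1 was the highest library of both groups and the ranges overlapped. The difference was -0.18 (limma, unadjusted p = 0.488). *Slc6a6*, the taurine transporter gene, had 101, 96.3 and 108 FPKM in control and 139, 104 and 123 FPKM in C3G libraries, with a difference of 0.25 (limma, unadjusted p = 0.188). Here C3G replicate 2 lay within the control range.

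The light chains of Slc3a2 listed in the tables were *Slc7a5* (LAT1, a leucine importer), *Slc7a6* (y+LAT2) and *Slc7a7*, 3 of a list of 5, since *Slc7a8* and *Slc7a10* are not analysed here. *Slc7a11*, another known light chain, was left out by the selection rule, so the shares and ratios given here cover a partial set. Of the 3 listed 1 was called (0.650% of all genes), the gene that the filter favoured. The median difference was 0.28 beside 0.06 for all genes, and 0.15 beside -0.01 with replicates 2 and 3 only. With all libraries the list's median is the value of *Slc7a7* itself, so it describes that gene and is no support for a shift of the list. *Slc7a5* had 53.6, 56.3 and 44.4 FPKM against 50.7, 64.7 and 47.9, and *Slc7a6* had 4.48, 12.1 and 10.9 FPKM against 10.4, 11.3 and 10.4. *Slc7a5* made up 79.8% to 91.8% of the summed light chains, so the called gene *Slc7a7* was a small share of them in every library. The ratio of *Slc3a2* to the summed light chains was 2.53, 1.34 and 1.84 in control and 2.00, 1.14 and 1.51 in C3G libraries (exact permutation p = 0.5). It was lowest in replicate 2 of both groups. Within each replicate number the ratio was lower after C3G, a pairing that the permutation test did not use.

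Amino acid transporter genes known as targets of the integrated stress response were listed for 7 of 8, without *Slc7a3*. Among them 1 (*Slc6a9*) was called (0.650% of all genes), 6 were higher and 1 lower by sign (62.0% of all genes were higher), and the median difference was 0.29 with all libraries, 0.11 with replicates 2 and 3 only and 0.18 after correction for GC content. The respective medians of all genes were 0.06, -0.01 and -0.00131. With replicates 2 and 3 only, 5 of the listed targets were higher and 2 lower by sign. With all libraries the list's median is the value of *Slc7a1* itself, which ran from 0.018 to 0.52 with 1 library left out. It describes that gene and is no support for a shift of the list. *Slc38a2* (SNAT2, a sodium-coupled carrier of neutral amino acids) had 22.4, 59.5 and 42.7 FPKM in control and 38.5, 67.3 and 43.9 FPKM in C3G libraries. *Slc7a1* (CAT-1, an arginine and lysine importer) had 6.39, 13.9 and 10.4 against 9.75, 16.2 and 11.5 FPKM. In both genes replicate 2 was the highest and replicate 1 the lowest library of each group. *Slc1a4* (ASCT1, a serine carrier) had 6.04, 20.5 and 19.1 against 16.1, 20.6 and 18.6 FPKM, where control replicate 1 alone lay apart, and *Slc1a5* (ASCT2, a glutamine carrier) had 15.1, 13.0 and 12.1 against 13.7, 13.4 and 13.1 FPKM.

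**Figure D4:**
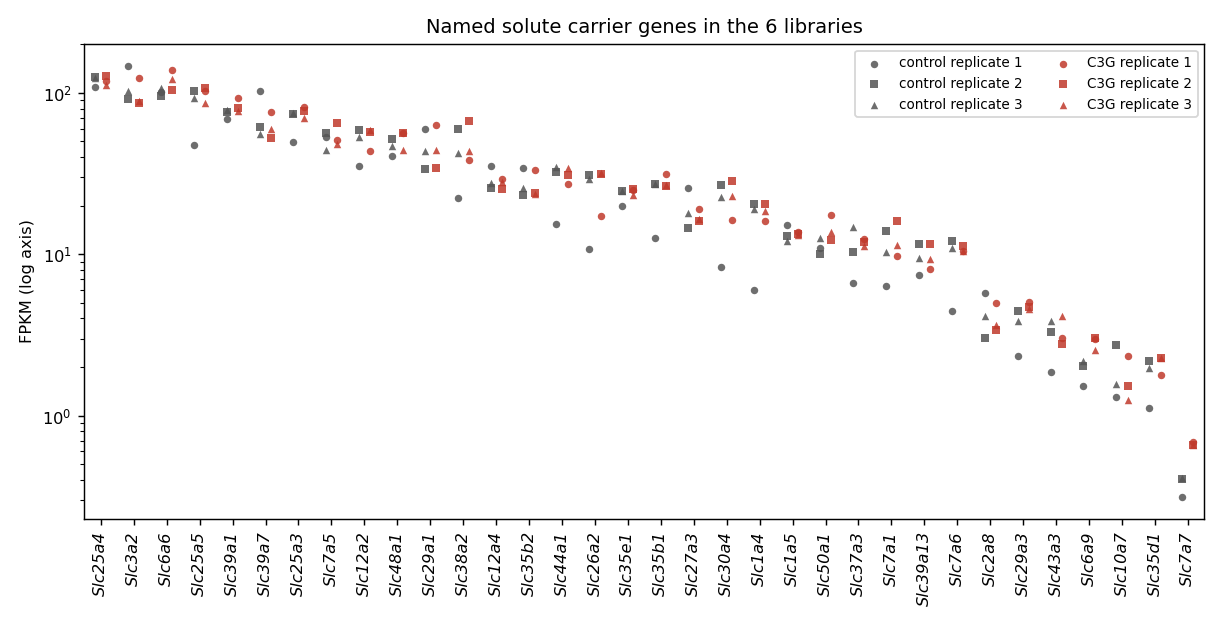
FPKM (log axis) of the 34 named carriers in the 6 libraries, ordered by control mean, with control libraries in grey, C3G libraries in red and the replicate number shown by the shape of the symbol. Control replicate 1 (grey circles) lies below the other libraries for genes such as Slc25a5, Slc1a4 and Slc26a2 and above them for Slc3a2 and Slc39a7.

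Among the 37 Slc25 mitochondrial carriers 0 were called by limma (0 at an unadjusted p under 0.05, the smallest being 0.0791 for *Slc25a45*), 29 were higher and 8 lower by sign (62.0% of all genes were higher), and the median difference was 0.08. With replicates 2 and 3 only 15 were higher and 22 lower, with a median of -0.023, and after GC correction the median was -0.0025. The summed level was 475, 620 and 595 FPKM in control and 617, 622 and 570 FPKM in C3G libraries, where control replicate 1 was the lowest. Adenine nucleotide carriers exchange matrix ATP for cytosolic ADP, and *Slc25a4* and *Slc25a5* were listed of a list of 3, the other, *Slc25a31*, being not analysed here. *Slc25a4* had 109, 125 and 123 FPKM in control and 118, 127 and 112 FPKM in C3G libraries, means of 119 ± 8.92 and 119 ± 7.55 (SD, n = 3 each). *Slc25a5* had 47.8, 103 and 93.6 FPKM against 103, 107 and 87.2 FPKM, with means of 81.5 ± 29.6 and 99.0 ± 10.4. Its difference of 0.35 (limma, unadjusted p = 0.294) was 0.01 without control replicate 1. Its level is uncertain, since 27.9% of the 75-base windows along its transcript are found in other genes' transcripts as well. The ratio of *Slc25a4* to *Slc25a5* was 2.28, 1.21 and 1.32 in control and 1.15, 1.19 and 1.28 in C3G libraries (exact permutation p = 0.2), so control replicate 1 was the library that stood apart. Both genes together took 33.0% to 37.5% of the Slc25 sum. *Slc25a3*, the mitochondrial phosphate carrier, had 49.7, 73.6 and 74.8 FPKM against 82.4, 77.7 and 69.7 FPKM.

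Metal carriers showed 0 of 22 called by limma (0 at an unadjusted p under 0.05, the smallest being 0.180), with 17 higher and 5 lower by sign, a median difference of 0.17 and group sums of 288, 330 and 313 FPKM in control and 335, 332 and 317 FPKM in C3G libraries. Replicates 2 and 3 alone gave 12 higher and 10 lower, with a median of 0.0047. *Slc39a1*, a zinc importer of the plasma membrane, had 69.0, 75.6 and 77.9 FPKM in control and 93.1, 80.6 and 77.7 FPKM in C3G libraries. *Slc39a7*, which releases zinc from the endoplasmic reticulum, had 102, 61.5 and 55.3 against 75.8, 52.5 and 60.1 FPKM. Replicate 1 was the highest library of each group for *Slc39a7*, and 83.7% of its transcript's 75-base stretches occur in transcripts of another gene, *Gm20427*, so its level is uncertain. *Slc30a4*, a zinc transporter of vesicles, had 8.34, 26.9 and 22.7 FPKM against 16.2, 28.6 and 22.95 FPKM. *Slc39a13*, a zinc carrier whose loss causes a connective tissue and skeletal disorder, had 7.49, 11.5 and 9.44 against 8.09, 11.5 and 9.399 FPKM.

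Anion carriers (0 of 18 called, and 0 at an unadjusted p under 0.05) had 11 genes higher and 7 lower by sign, a median difference of 0.14 and sums of 130, 175 and 172 FPKM in control and 153, 176 and 182 FPKM in C3G libraries. In replicates 2 and 3 alone, 10 were higher and 8 lower (median 0.014). *Slc5a8* and *Slc16a6* are in the tables only through the C3G group, as *Slc7a7* is, and both count among the higher genes. *Slc12a2* (NKCC1, a sodium, potassium and chloride cotransporter) had 35.3, 59.1 and 53.7 FPKM against 43.4, 57.6 and 59.3, and *Slc12a4* (a potassium and chloride cotransporter) 35.1, 25.6 and 27.8 against 29.3, 25.4 and 28.1 FPKM. *Slc26a2*, the sulfate transporter whose mutations cause chondrodysplasias, had 10.8, 30.9 and 29.5 FPKM against 17.2, 31.4 and 32.01 FPKM. Replicate 1 was its lowest library in both groups and replicates 2 and 3 lay between 29.5 and 32.01 FPKM in both.

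Of the nucleotide sugar carriers 0 of 19 were called (0 at an unadjusted p under 0.05), with 14 higher and 5 lower by sign, a median difference of 0.19 and sums of 147, 192 and 191 FPKM in control and 201, 191 and 185 FPKM in C3G libraries. The direction turned with replicates 2 and 3 only, with 8 higher and 11 lower and a median of -0.023. *Slc35b2*, which supplies the sulfate donor PAPS to the Golgi apparatus, had 34.2, 23.2 and 25.6 FPKM against 33.4, 24.1 and 23.6. *Slc35b1*, assigned here by its family although known as an ATP and ADP exchanger of the endoplasmic reticulum, had 12.7, 27.1 and 27.2 FPKM against 31.3, 26.5 and 26.7. *Slc35e1* had 19.997, 24.8 and 24.6 against 24.9, 25.2 and 23.4 FPKM. *Slc35d1*, which carries UDP sugars for chondroitin sulfate, had 1.12, 2.17 and 1.98 against 1.79, 2.28 and 2.26 FPKM.

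The sugar carriers had 0 of 9 called (0 at an unadjusted p under 0.05), 7 higher and 2 lower by sign, a median difference of 0.17 and sums of 36.4, 38.2 and 47.2 FPKM in control and 52.2, 44.1 and 44.4 FPKM in C3G libraries. The direction turned here too with replicates 2 and 3 only, with 3 higher and 6 lower and a median of -0.015. *Slc50a1*, a sugar carrier of the SWEET family, had 10.96, 10.1 and 12.7 FPKM against 17.6, 12.2 and 13.6 FPKM (difference 0.33, limma, unadjusted p = 0.123). *Slc37a3*, known in lysosomes for releasing nitrogen-containing bisphosphonates into the cytosol, had 6.65, 10.4 and 14.7 FPKM against 12.4, 11.8 and 11.2 FPKM. *Slc2a8* (GLUT8) had 5.79, 3.02 and 4.16 FPKM against 4.97, 3.40 and 3.66 FPKM.

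Of the 4 nucleoside carriers 0 were called (0 at an unadjusted p under 0.05). By sign 4 were higher with all libraries, and 2 higher and 2 lower with replicates 2 and 3 only (median -0.011). Their median difference over all libraries was 0.09, and their sums were 64.7, 42.2 and 52.0 FPKM in control and 73.0, 42.4 and 54.1 FPKM in C3G libraries. *Slc29a1* (ENT1, an equilibrative nucleoside transporter) had 59.6, 33.8 and 43.4 FPKM against 63.6, 34.4 and 44.6, and 99.2% of its variation on the log2 scale went with the replicate number. *Slc29a3*, a nucleoside transporter of lysosomes and mitochondria, had 2.33, 4.47 and 3.87 FPKM against 5.03, 4.70 and 4.61 FPKM. Its groups did not overlap and limma gave an unadjusted p of 0.131 for a difference of 0.37. With 1 library left out at a time the difference ran from 0.16 to 0.52, and control replicate 1 was the lowest library. *Slc43a3*, a purine nucleobase carrier, had 1.87, 3.31 and 3.85 against 3.04, 2.78 and 4.14 FPKM.

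Among carriers of other substrates 0 of 27 were called (0 at an unadjusted p under 0.05), 17 were higher and 10 lower by sign, and the median difference was 0.04, with sums of 179, 219 and 218 FPKM in control and 221, 216 and 210 FPKM in C3G libraries. The direction turned with replicates 2 and 3 only, to 11 higher and 16 lower (median -0.011). *Slc48a1*, which exports heme from lysosomes, had 40.6, 52.1 and 46.8 FPKM against 56.6, 56.7 and 44.4 FPKM. *Slc44a1*, a choline carrier, had 15.5, 32.2 and 34.6 against 27.2, 31.1 and 34.3, and *Slc27a3*, an acyl-CoA synthetase of the fatty acid transport family, 25.8, 14.5 and 17.9 against 19.1, 15.97 and 16.6 FPKM. The fitted difference was largest for *Slc33a1*, the acetyl-CoA carrier of the endoplasmic reticulum, at 0.73 (limma, unadjusted p = 0.262; chosen after its values were seen). Its FPKM was 3.01, 18.1 and 18.8 in control and 16.6, 19.3 and 18.4 in C3G libraries, so it rested on control replicate 1, without which the difference was -0.03.

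Of the 4 genes named after a carrier 0 were called (0 at an unadjusted p under 0.05). By sign 4 were lower with all libraries (median -0.13), and 2 higher and 2 lower with replicates 2 and 3 only (median 0.0086). *Slc9a3r1* (NHERF1, a scaffold protein) had 75.8, 32.01 and 37.2 FPKM in control and 43.3, 37.5 and 36.4 FPKM in C3G libraries. *Slc9a3r2* (NHERF2) had 13.9, 6.58 and 5.89 against 10.2, 6.46 and 6.42 FPKM, and *Slc7a6os*, which lies beside *Slc7a6*, 8.86, 6.99 and 7.31 against 6.95, 7.20 and 6.82 FPKM. Control replicate 1 was the highest library for each of the 3.

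The transporters tied to skeletal disease, taken as a list across groups, had 5 of 7 genes listed (*Slc10a7*, *Slc26a2*, *Slc29a3*, *Slc35d1* and *Slc39a13*; *Slc13a5* and *Slc39a8* are not analysed here). Of these 0 were called (0 at an unadjusted p under 0.05), 4 were higher and 1 lower by sign, and the median difference was 0.19 (0.071 with replicates 2 and 3 only). *Slc10a7*, whose loss causes a skeletal dysplasia with enamel defects, was the lower one, at 1.30, 2.73 and 1.56 FPKM in control and 2.33, 1.52 and 1.26 FPKM in C3G libraries. Of a list of 11 lysosomal carriers 7 were listed, 0 were called (0 at an unadjusted p under 0.05) and the median difference was 0.11 (-0.011 with replicates 2 and 3 only).

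Values also went with the replicate number. The median share of a gene's variation that went with the replicate number was 58.7% for solute carrier genes (66.6% for all genes), and the share that went with the group was 11.4% (9.05%). The replicate number has 2 degrees of freedom and the group 1, so these shares are not on an equal footing. The replicate number held more than 50% of the variation in 98 of the 158 genes (7702 of all 11234), and the group did so in 8 (368 of all genes). The clearest case was *Slc39a9*, a zinc carrier chosen after its values were seen, at 3.28, 6.98 and 2.57 FPKM in control and 3.00, 6.80 and 2.53 FPKM in C3G libraries. Replicate 2 was above both other replicates in each group.

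Control replicate 1 was the lowest library of its group for 94 of the 158 genes and the highest for 49, and its departure from the other libraries went with the GC content of the transcript at a Spearman's rho of 0.729 over the solute carrier genes and 0.748 over all genes (across genes, a description). For C3G replicate 1 the rho values were 0.649 and 0.631. The 79 genes at or below the median GC content of 50.8% had a median difference between groups of 0.19, and the 79 genes above it had 0.03. With replicates 2 and 3 only, these medians were -0.01 and -0.00146.

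**Figure D5:**
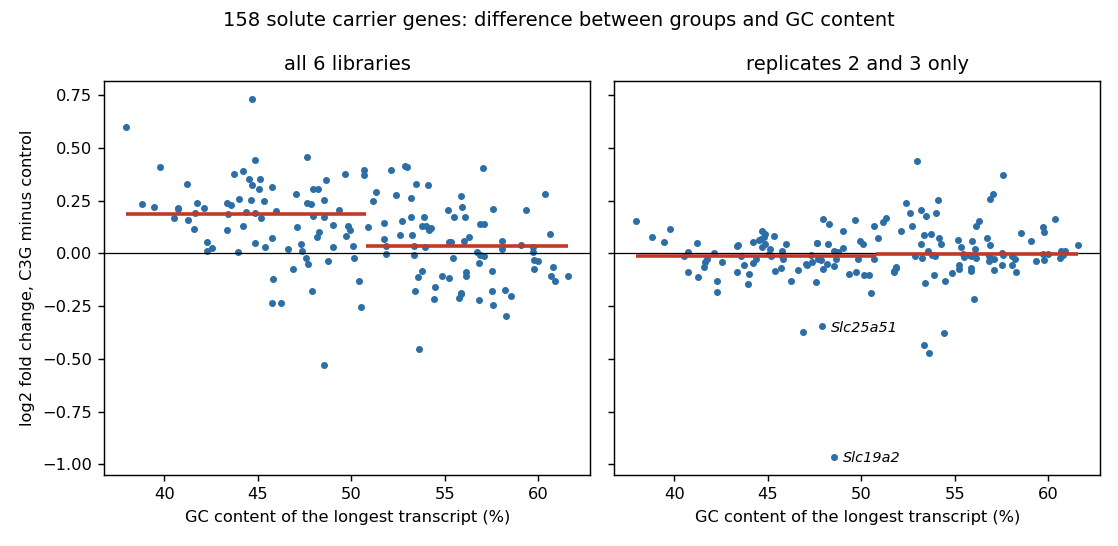
Log2 fold change of C3G against control (vertical axes) against the GC content in percent of the longest transcript (horizontal axes) for the 158 solute carrier genes, with all 6 libraries on the left and replicates 2 and 3 only on the right, red lines marking the medians below and above the median GC content. The medians are 0.19 and 0.03 on the left and -0.01 and -0.00146 on the right, where Slc19a2 lies lowest.

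With replicates 2 and 3 only, limma called 4 of 158 solute carrier genes (2.53%), all 4 lower after C3G, beside 191 of all genes (1.70%), of which 88 were higher (0.783%) and 103 lower (0.917%). Without control replicate 1 but with the other 5 libraries the counts were 6 of 158 (3.80%) and 144 of all genes (1.28%), 3 of the 6 higher and 3 lower. Neither *Slc6a9* nor *Slc7a7* met the thresholds in the 4 libraries of replicates 2 and 3, where their differences were 0.28 (limma, unadjusted p = 0.0518) and 0.24 (unadjusted p = 0.0560). The 4 genes lower in these were named after their values were seen. *Slc19a2* (GRCm38 chr1:164249046-164265385, plus strand), which takes up thiamine, had 2.67, 10.2 and 9.96 FPKM in control and 3.68, 4.24 and 5.17 FPKM in C3G libraries. Both replicates 2 and 3 were lower after C3G, with means of 10.1 and 4.70 FPKM, and control replicate 1 was lower than any C3G library. The difference was -0.96 (limma, unadjusted p = 0.000274, adjusted p = 0.249) in these libraries and -0.53 (unadjusted p = 0.271) in all 6.

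*Slc25a51*, the mitochondrial NAD carrier (GRCm38 chr4:45395923-45408766, minus strand), had 6.97, 10.8 and 10.4 FPKM in control and 7.87, 8.19 and 8.05 FPKM in C3G libraries. It differed by -0.35 with replicates 2 and 3 only (limma, unadjusted p = 0.00758), by -0.27 with the correction for GC content over all 6 libraries (unadjusted p = 0.0384) and by -0.18 without it (unadjusted p = 0.391). The others were *Slc25a44*, a carrier of branched-chain amino acids, at 6.71, 12.9 and 12.7 against 14.03, 10.01 and 8.54 FPKM, and the UDP-galactose carrier gene *Slc35a2* at 1.25, 1.61 and 2.06 against 1.43, 1.14 and 1.21 FPKM. In each of the 4 genes C3G replicate 1 was above control replicate 1. None of these 4 genes was called with all 6 libraries and no correction, and none had an adjusted p under 0.05 in any setting tried.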

How the data were processed

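RNA was extracted with Trizol and sequenced from stranded (KAPA) libraries of 3 control and 3 C3G-treated samples, grouped by the sample labels. The authors ran FastQC on the reads and deposited FPKM per gene from Ballgown. The submitters' processing notes list cutadapt, HISAT2 2.1.0, StringTie, STAR 2.5.2b and the human build hg19, although the identifiers are mouse genes. How strand and shared reads were handled is not given in the sources used here, and depth is unknown. Of 11234 identifiers, 11211 matched a symbol (GENCODE M21, GRCm38).

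limma 3.58.1 in R 4.3.3 (eBayes with trend, group as the only term) was fitted over all genes to log2(FPKM + 1). Calls needed p below 0.05, two-sided, with a fold of 1.2 or more, and Benjamini-Hochberg adjusted values stand beside them. Single genes had an exact permutation test (smallest p 0.1). Fits were run on simulated data with changes larger than those of *Slc6a9* and *Slc7a7*. The simulated noise came from replicates 2 and 3 and was drawn separately for each library. The spread of control replicate 1 and effects shared by a replicate number were thus not simulated. Python 3.11.15 with scipy 1.17.1, numpy 2.4.6 and pandas 2.3.3 served for the rest.

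The 17 alternatives changed 1 choice each, apart from the block with GC correction, which changed both: the pseudocount (0.1), a filter (mean FPKM 1 or more), eBayes (no trend), moderation (none), scaling (medians centred, or quantiles), the fold (from group means), a replicate block, GC content (a spline with 5 degrees of freedom per library, also with the block), replicate 1 left out of both groups, and each of 6 libraries left out. Libraries of the same number deviated together (r = 0.440, 0.580 and 0.653 over all genes; different numbers -0.640 to 0.307), so the numbers, which come from the labels, were taken to pair the samples.

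Members, lists and tests were chosen with earlier results of these data known. Named genes were *Slc3a2*, *Slc25a5* and *Slc6a9*, every called gene, the 3 highest control means in all and per substrate group, and the lists of stress response targets, CD98 light chains, adenine nucleotide carriers and skeletal disease transporters, 37 in all.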

Additional observations from a re-analysis of the deposited data

How the results depend on the processing

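Sequencing depth is unknown, so counting error cannot be given, and 3 libraries per group limit every comparison. The median difference of the solute carrier genes was 0.11 and ran from -0.01 (replicates 2 and 3 only) to 0.16 (without control replicate 2), with its sign changed in the former, and was 0.018 without control replicate 1. The number of called solute carrier genes was 1 with a mean FPKM of at least 1, with eBayes without the trend and with median centring (*Slc6a9* each time; 54, 60 and 55 of all genes), 0 with quantile normalization (60 of all genes), 3 with an ordinary linear model (*Slc25a45*, *Slc6a9* and *Slc7a7*), 4 with the replicate block and GC correction together and 4 with replicates 2 and 3 only. Leaving out 1 library gave 0 to 6, with 6 without control replicate 1, 3 without control replicate 3, and 0 without control replicate 2 or any 1 of the C3G libraries. Over all genes the count was 135 with GC correction, 48 with an ordinary linear model, 169 with the replicate block, 246 with the block and GC correction, 191 with replicates 2 and 3 only and 40 to 144 with 1 library left out. With the replicate block, by which the numbers pair the samples, limma called *Slc6a9* and *Slc7a7*, the 2 solute carrier genes called without it. Among solute carrier genes the block changed no call of the uncorrected fit, while over all genes 169 were called with it and 73 without it. With GC correction it added the call of *Slc6a9* to those of *Slc25a45*, *Slc25a51* and *Slc45a4*. The adjusted calls were 0 in every alternative. Of the 37 named genes, 27 changed sign in at least 1 alternative, none of them a called gene. With GC correction, alone or with the replicate block, the log2 difference became -0.018 for *Slc12a2*, 0.044 for *Slc27a3*, 0.11 for *Slc2a8*, 0.11 for *Slc35b2* and 0.090 for *Slc9a3r2*. With median centring it became -0.061 for *Slc1a5*, -0.014 for *Slc29a1* and -0.034 for *Slc39a13*, and with quantile normalization -0.029 for *Slc1a5*, 0.010 for *Slc25a4* and -0.024 for *Slc39a13*. With replicates 2 and 3 only it became 0.0021 for *Slc12a4*, -0.015 for *Slc1a4*, -0.011 for *Slc25a3*, -0.027 for *Slc25a5*, 0.013 for *Slc27a3*, -0.028 for *Slc35b1*, -0.023 for *Slc35e1*, -0.096 for *Slc37a3*, -0.0012 for *Slc39a13*, -0.054 for *Slc43a3*, -0.028 for *Slc44a1*, -0.073 for *Slc7a6*, 0.097 for *Slc9a3r1* and 0.042 for *Slc9a3r2*. Leaving out 1 library at a time gave -0.23 to 0.13 for *Slc10a7*, -0.088 to 0.28 for *Slc12a2*, -0.18 to 0.045 for *Slc12a4*, -0.10 to 0.70 for *Slc1a4*, -0.061 to 0.088 for *Slc1a5*, -0.065 to 0.042 for *Slc25a4*, -0.21 to 0.54 for *Slc26a2*, -0.31 to 0.085 for *Slc27a3*, -0.18 to 0.26 for *Slc29a1*, -0.25 to 0.13 for *Slc2a8*, -0.16 to 0.63 for *Slc30a4*, -0.19 to 0.13 for *Slc35b2*, -0.012 to 0.14 for *Slc35e1*, -0.063 to 0.46 for *Slc37a3*, -0.055 to 0.63 for *Slc38a2*, -0.11 to 0.17 for *Slc39a13*, -0.35 to 0.088 for *Slc39a7*, -0.34 to 0.021 for *Slc3a2*, -0.096 to 0.28 for *Slc43a3*, -0.11 to 0.44 for *Slc44a1*, -0.053 to 0.16 for *Slc7a5*, -0.090 to 0.54 for *Slc7a6*, -0.44 to 0.17 for *Slc9a3r1* and -0.32 to 0.24 for *Slc9a3r2*. The cause of these changes was not tested.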

Other observations

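*Slc36a1*, a proton-coupled amino acid carrier of lysosomes, had 1.97, 2.70 and 0.930 FPKM in control and 1.22, 0.930 and 0.926 FPKM in C3G libraries, and met the thresholds as lower in 1 of 17 alternatives, without control replicate 3 (limma, unadjusted p = 0.00905). *Slc35d2*, a nucleotide sugar carrier, had 0.192, 0.611 and 1.07 FPKM against 0.793, 0.893 and 0.971 FPKM and met them as higher in the same alternative (limma, unadjusted p = 0.0499). *Slc25a45* did so as higher in 4 of 17 alternatives and *Slc45a4* in 3 of 17. All 4 were chosen after their values were seen. Near-identical copies limit other levels. The organic cation carrier genes *Slc22a5* and *Slc22a21* share 18.0% and 15.9% of their 75-base stretches, and *Slc39a1* shares 18.0% with other transcripts.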
